A study of Homo sapiens with 24 samples.

Results

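The change in the transcriptome 2 h after pyridostatin (PDS, 5 µM) was compared between 2 ovarian carcinoma cell lines, PEO4 and PEO1 BRCA+. The quantity described is the interaction: the log2 fold change (log2FC) from untreated to 2 h in PEO4 minus the same log2FC in PEO1 BRCA+, so that a value above 0 is a response that was higher in PEO4 and a value below 0 one that was lower. Of the 24 RNA-seq libraries of the series, 12 carry this comparison, in 4 groups of 3 biological replicates: untreated PEO1 BRCA+, PEO1 BRCA+ at 2 h, untreated PEO4 and PEO4 at 2 h. All genes were eligible, and 17020 of the 28277 genes listed had enough counts to be tested. PEO1 and PEO4 were established from high-grade serous ovarian carcinoma of one patient, before and after resistance to chemotherapy arose. The PEO1 BRCA+ cells used here carry a spontaneous reversion that restores BRCA2, so both lines of this comparison are BRCA2-proficient, while PEO1 cells of a further set of untreated libraries are BRCA2-deficient. All were grown in RPMI with serum, with sodium pyruvate added for the BRCA2-deficient PEO1 and its corresponding PEO4. Each line is 1 established line, so the comparison is between these lines and not between classes of tumour.

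PDS is a small molecule that stacks on and stabilises G-quadruplexes (G4s), four-stranded structures that guanine-rich DNA can fold into, and it is used to perturb G4s in cells. G4s form in the promoters of many active genes, and a stabilised G4 can stall polymerases and provoke a DNA damage response. High-grade serous carcinoma arises from Müllerian epithelium, and its cells express the lineage factors PAX8 and WT1 with simple-epithelial keratins. mRNA can respond within this time only where it is short-lived or where transcription changes strongly, and immediate early genes, chemokines, inhibitors of signalling and unstable transcription factor mRNAs are the classes known for it.

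The untreated libraries held 18699929 to 22375644 counts and the 2 h libraries 33260167 to 43156993. The share of ribosomal RNA was 0.163 to 0.355% without PDS and 0.0137 to 0.0187% with it, so every treated library of both lines was deeper and lower in ribosomal RNA, and depth and treatment cannot be told apart within a line. A shift of the same size in both lines drops out of the interaction, while one that differs between the lines stays in it. A shift of the latter kind cannot be told apart from a line difference in the response to PDS. BRCA2 had 146 to 213 counts in the untreated and 197 to 307 in the 2 h libraries, and its interaction was 0.07 (SE 0.17, edgeR adjusted p = 0.78). The ovarian carcinoma markers PAX8, WT1, EPCAM and KRT7 were expressed in each group, SOX17 was at 0 in the untreated libraries of both lines, and the leukocyte markers PTPRC, CD3E, CD3D, CD2 and MS4A1 were at 0 throughout. Per-library values below are CPM, the read count scaled to a common library total with TMM factors, in the order of replicates 1 to 3. Other ovarian markers were low in places. FOLR1 averaged 0.103 and 0.0562 CPM in untreated and 2 h PEO1 BRCA+ against 33.7 and 4.04 CPM in PEO4, and MECOM 0.159 CPM in untreated PEO4. Summed over 14 ovarian markers the level was 9931 to 10060 CPM in untreated PEO1 BRCA+ and 13550 to 14740 at 2 h, and 6893 to 8979 CPM in untreated PEO4 and 6267 to 6862 at 2 h. Most of it was KRT7, KRT8 and KRT18, at 3313, 3265 and 1695 CPM on average in untreated PEO1 BRCA+. Among untreated PEO4 libraries, replicate 2 lay nearest to the treated PEO4 mean for 57.6% of the genes with a higher and 64.4% of those with a lower interaction, against 43.5% of all genes tested. Where the interaction of a gene described below moved by more than 0.6 on the log2 scale without that library, the value without it is given.

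Altogether 1876 genes passed the test (11% of 17020), at an edgeR quasi-likelihood Benjamini-Hochberg adjusted p under 0.05 over all tested genes and an interaction above 1 or below -1. The response was higher in PEO4 for 1039 genes (6.10%) and lower for 837 (4.92%), and the median interaction over all genes was 0.02. The counts given below for gene lists are to be read against these shares. In the response of each line by itself, 2959 genes (17.4%) were called in PEO4, of which 1089 rose (6.4%) and 1870 fell (11%), against 1288 (7.57%) in PEO1 BRCA+, of which 201 rose (1.18%) and 1087 fell (6.39%). Most genes of higher or lower response were called in PEO4 and not in PEO1 BRCA+. Of the 1039 higher responses, 537 (51.7%) rose in PEO4 and were not called in PEO1 BRCA+, with a median log2FC of 1.74 and -0.05. A further 190 (18.3%) fell in PEO1 BRCA+ and were not called in PEO4, with medians of -1.49 and 0.13, and 220 (21.2%) were called in neither line alone. Of the 837 lower responses, 644 (76.9%) fell in PEO4 and were not called in PEO1 BRCA+, with medians of -1.99 and -0.06. Opposite calls were made for 63 genes that rose in PEO4 and fell in PEO1 BRCA+ and for 19 that did the reverse, and the 19 became 11 when libraries were scaled by their totals alone. The interaction is the difference of these 2 responses and shares their libraries, so the split is a description of its parts. In 168 of the called genes at least 1 of the 4 groups had no more than 3 counts in any library, and the fitted value of such a gene depends on the prior count. Without untreated PEO4 replicate 2, 1130 genes were higher and 933 lower, and the genes called in PEO4 and not in PEO1 BRCA+ numbered 639 and 739.

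**Figure D1:**
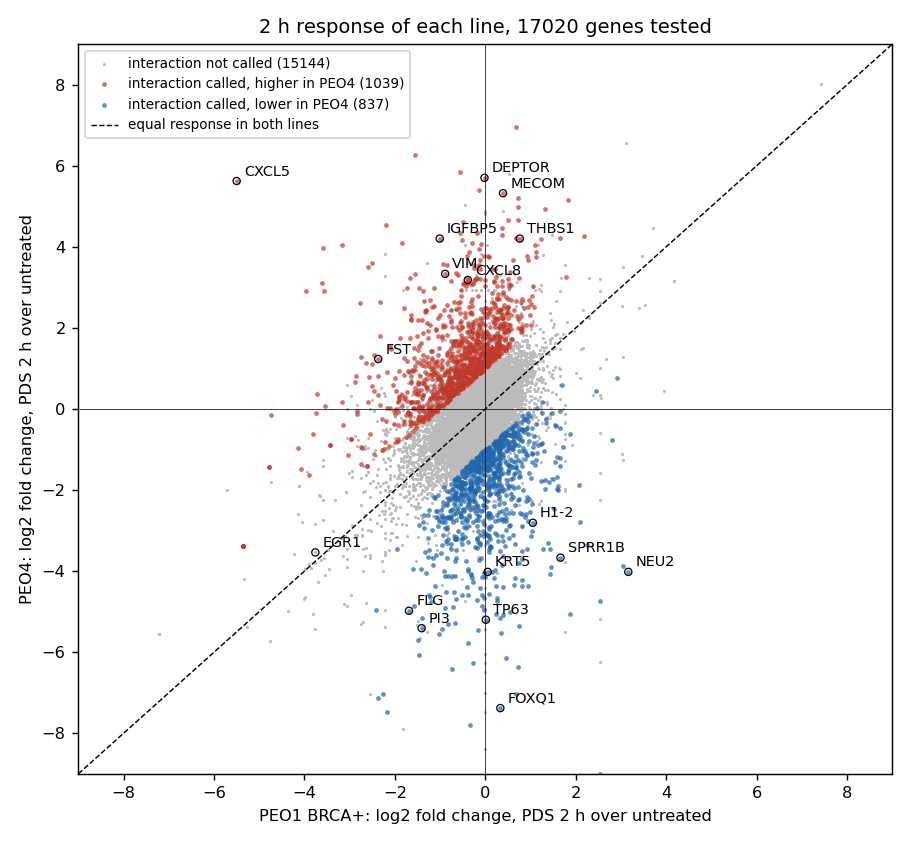
The log2FC of each tested gene at 2 h in PEO1 BRCA+ (horizontal axis) and in PEO4 (vertical axis), with the 1039 genes of higher and the 837 of lower response in PEO4 coloured and 4 genes beyond the axes not drawn. The coloured genes spread mainly along the vertical axis, where the 537 rises and 644 falls called in PEO4 alone lie.

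The genes with a higher response in PEO4 were, at the median, lower there before treatment. Their median untreated line difference, PEO4 minus PEO1 BRCA+, was -0.85 on the log2 scale and was 0.86 at 2 h, and that of the genes with a lower response was 0.83 and became -1.0, while over all tested genes both medians lay between 0.00 and 0.02 in size. A line difference called in the untreated cells was not called at 2 h for 299 of the 1039 higher (28.8%) and 262 of the 837 lower responses (31.3%). A difference absent from the untreated calls was called at 2 h for 316 (30.4%) and 243 (29.0%), and 40 and 45 genes were called in opposite directions before and after. These values share the untreated libraries with the interaction, which is the 2 h line difference minus the untreated one. A further 6 untreated libraries, 3 each of BRCA2-deficient PEO1 and of PEO4, share none. There the sensitive line is another derivative, both lines were grown with added sodium pyruvate, and that table was scaled separately. Mean log2 levels of untreated PEO4 correlated at 0.92 between the sets. Those of untreated PEO4 and PEO1 BRCA+ of the compared libraries correlated at 0.923, so the PEO4 of that set is no plain repeat. There 42.0% of the 940 genes with a higher response that could be compared were lower in PEO4 by more than 1 on the log2(CPM + 0.5) scale, against 11% of all 15396 genes. Of the 757 genes with a lower response, 32.6% were higher in PEO4 by more than 1, against 9.4% of all. In the other direction, 19.3% of these 757 genes were lower in PEO4 by more than 1, against 11% of all. The genes with a lower response thus differed between these lines more often than all genes in both directions. The medians in that pair were -0.75 for the higher, 0.29 for the lower responses and -0.01 for all genes.

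**Figure D2:**
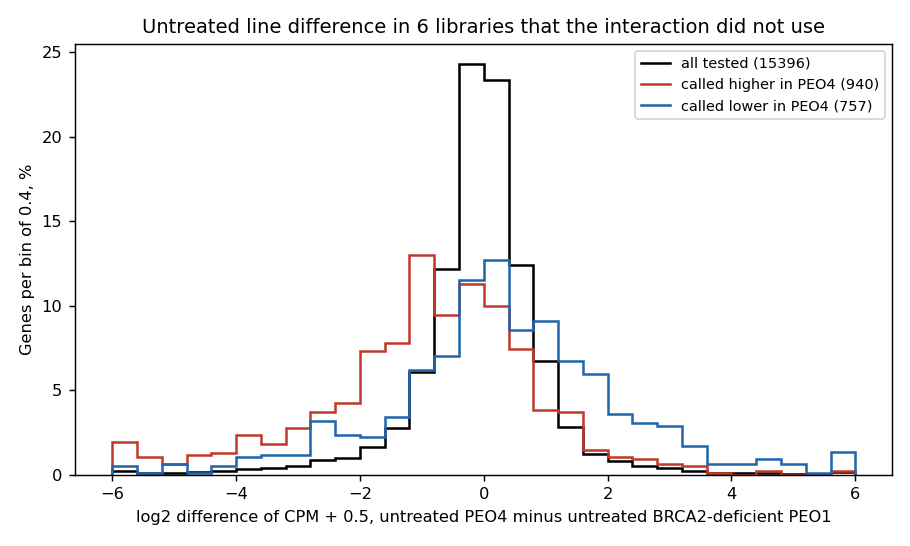
Distribution of the untreated difference PEO4 minus BRCA2-deficient PEO1, in log2(CPM + 0.5), for all genes and for genes with a higher or lower 2 h response in PEO4, with values beyond 6 in size placed in the end bins. The genes of higher response are shifted to the left (median -0.75) and those of lower response to the right (median 0.29), with wide overlap.

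Among genes expressed in both lines, the 10 largest negative interactions held FOXQ1 and 4 genes of basal and squamous epithelium that fell in PEO4. FOXQ1, a forkhead transcription factor of epithelia, had 15.3, 14.1 and 19.6 CPM in untreated PEO1 BRCA+, 20.8, 21.2 and 19.6 CPM in PEO1 BRCA+ at 2 h, 154, 59.1 and 247 CPM in untreated PEO4 and 1.17, 0.736 and 0.864 CPM in PEO4 at 2 h. Every treated PEO4 library was below every untreated one, and the PEO1 BRCA+ groups overlapped. The interaction of FOXQ1 was -7.71 (SE 0.70, edgeR adjusted p = 2.3e-06), and without untreated PEO4 replicate 2 it was -8.10. TP63 encodes p63, the master transcription factor of stratified epithelium, and it had 7.19, 7.27 and 5.75 CPM in untreated PEO1 BRCA+, 6.93, 6.46 and 6.98 CPM in PEO1 BRCA+ at 2 h, 4.63, 5.02 and 6.45 CPM in untreated PEO4 and 0.194, 0.0849 and 0.144 CPM in PEO4 at 2 h. The treated PEO4 libraries all lay below the untreated ones, with overlapping groups in PEO1 BRCA+. Its interaction was -5.21 (SE 0.32, edgeR adjusted p = 6e-12). COL17A1, the hemidesmosome collagen, had 5.99, 5.58 and 6.01 CPM in untreated PEO1 BRCA+, 10.2, 10.4 and 10.4 CPM in PEO1 BRCA+ at 2 h, 8.4, 10.3 and 12.6 CPM in untreated PEO4 and 0.889, 0.934 and 0.6 CPM in PEO4 at 2 h. Groups did not overlap in either line, with the treated libraries below the untreated ones in PEO4 and above them in PEO1 BRCA+. COL17A1 fell in PEO4 by 3.70, against a log2FC of 0.82 in PEO1 BRCA+, an interaction of -4.52 (SE 0.23, edgeR adjusted p = 4.7e-13). KRT5, the basal keratin that p63-positive cells make, had 1364, 1195 and 1476 CPM in untreated PEO1 BRCA+, 1403, 1372 and 1409 CPM in PEO1 BRCA+ at 2 h, 243, 101 and 179 CPM in untreated PEO4 and 9.92, 11.9 and 10.4 CPM in PEO4 at 2 h. In PEO4 the treated libraries were below the untreated libraries without overlap, and in PEO1 BRCA+ the groups overlapped. For KRT5 the interaction was -4.08 (SE 0.34, edgeR adjusted p = 1e-06). DLX3, a homeobox factor of epidermis and placenta, fell from 62.7 ± 30.04 to 2.62 ± 0.674 CPM in PEO4 (SD, n = 3) and went from 10.8 ± 1.24 to 8.24 ± 0.226 CPM in PEO1 BRCA+, an interaction of -4.20 (SE 0.49, edgeR adjusted p = 2e-05). In bulk RNA, fewer cells of a kind and less RNA per cell cannot be told apart.

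In the list of cornified envelope and squamous genes, 12 of 26 tested members had a lower response in PEO4 (46.2%) and 1 a higher one (3.8%). Over all tested genes the shares were 4.92% lower and 6.10% higher. The median interaction was -1.67, against 0.02 over all genes. The median was -1.83 with genes at their bounds where a group had at most 3 counts in each library. Over the 22 alternative settings, 11 to 15 members were lower. SPRR1B, a small proline-rich protein of the envelope, had 0.863, 0.248 and 0.703 CPM in untreated PEO1 BRCA+, 1.57, 1.99 and 2.06 CPM in PEO1 BRCA+ at 2 h, 3.29, 1.31 and 1.57 CPM in untreated PEO4 and 0.25, 0.0849 and 0.144 CPM in PEO4 at 2 h. The treated libraries were below the untreated ones in PEO4 and above them in PEO1 BRCA+, without overlap. The interaction was -5.33 (SE 0.56, edgeR adjusted p = 7e-08), and both lines passed the test, in opposite directions. PI3, the elastase inhibitor elafin, had 22.3, 24.2 and 29.6 CPM in untreated PEO1 BRCA+, 10.04, 9.98 and 8.71 CPM in PEO1 BRCA+ at 2 h, 411, 126 and 208 CPM in untreated PEO4 and 6.03, 5.18 and 6.31 CPM in PEO4 at 2 h. In both lines every treated library was below every untreated one. PI3 fell in both lines, by 5.41 in PEO4 and 1.41 in PEO1 BRCA+, and the interaction was -4.00 (SE 0.52, edgeR adjusted p = 5.5e-05). The envelope scaffold involucrin (IVL) had an interaction of -2.48, having risen by 1.10 in PEO1 BRCA+ and fallen by 1.38 in PEO4. Filaggrin (FLG) fell in both lines and by more in PEO4 (interaction -3.29), and the epidermal transcription factors GRHL3 and PRDM1 were called as falling in PEO4 and were not called in PEO1 BRCA+ (interactions -3.41 and -2.71). The exception was KLK7, a protease of corneocyte shedding, at 2.15, from a fall of 1.49 in PEO1 BRCA+. Of 21 tested keratins, 9 were lower (42.9%) and 3 higher (14.3%), with a median of -0.23. KRT9 reached -3.99, from log2FCs of -2.47 in PEO4 and 1.51 in PEO1 BRCA+. KRT6A fell in PEO4 (interaction -2.26), whereas the hair keratin KRT81 had an interaction of 2.39 after falling by 1.34 in PEO1 BRCA+. KRT8 and KRT18, the simple-epithelial pair, stood at -1.35 and -1.33, with log2FCs under 1 in size in each line.

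**Figure D3:**
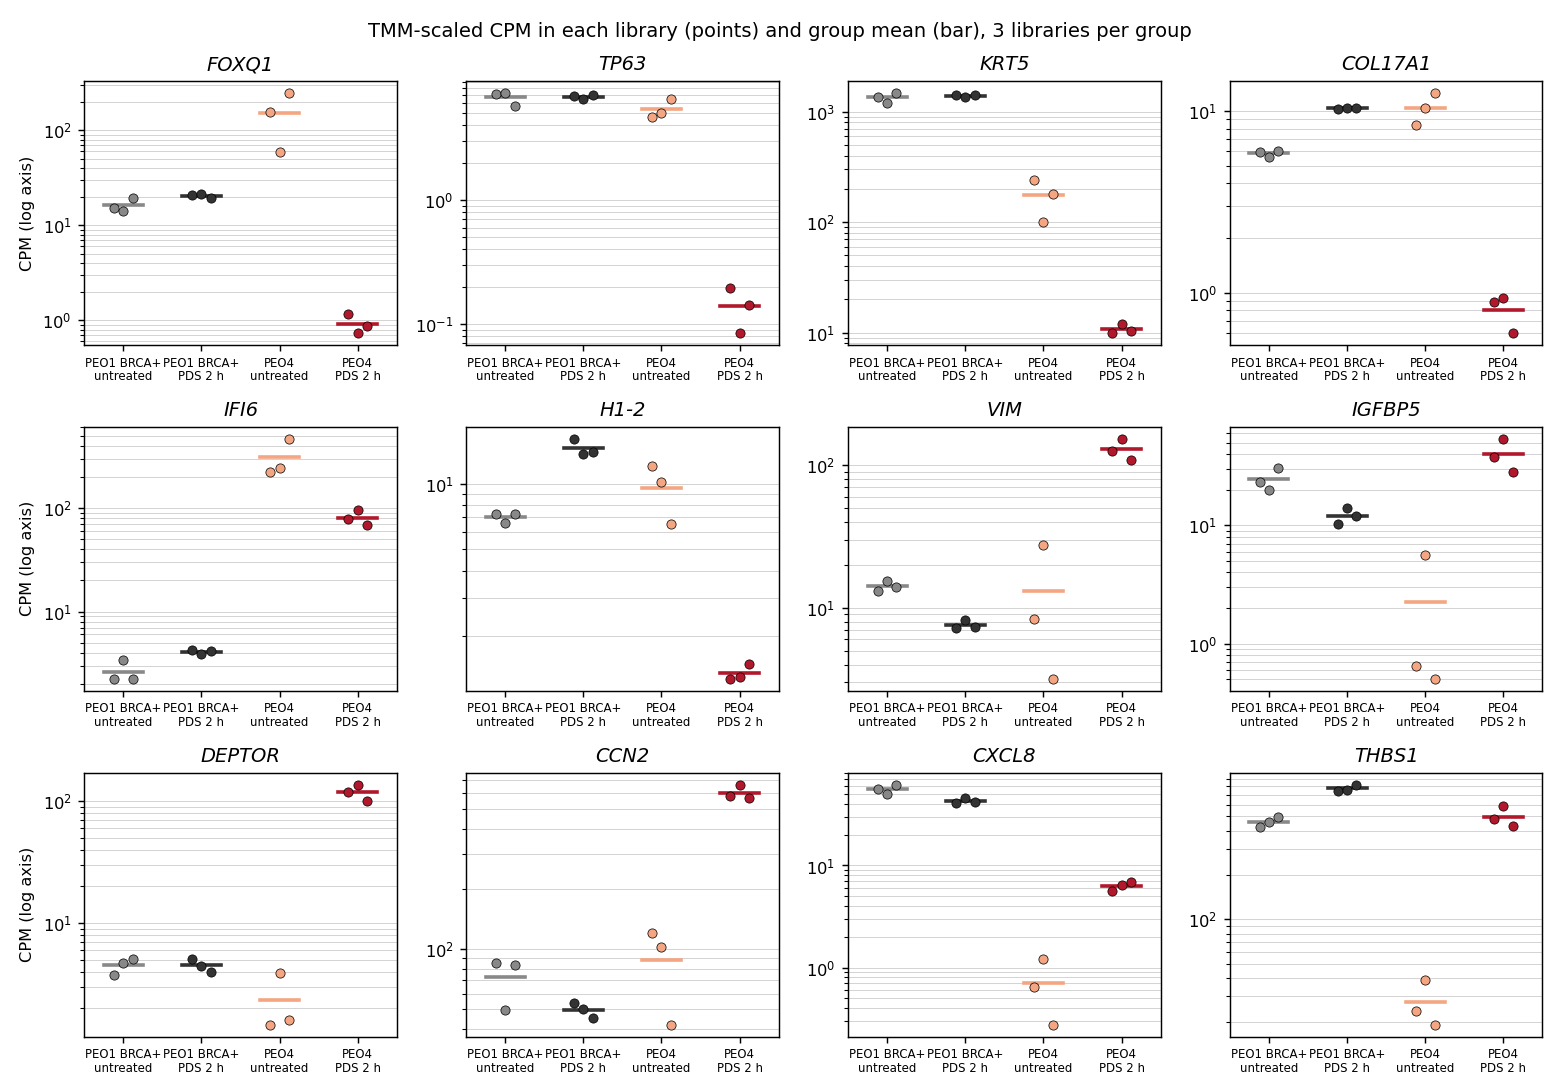
TMM-scaled CPM on a log axis in each of the 12 libraries for 12 genes, with points for libraries and bars for group means. FOXQ1, TP63, KRT5 and COL17A1 are lowest in PEO4 at 2 h, VIM, IGFBP5, DEPTOR and CCN2 have their highest mean there, and the untreated PEO4 points of VIM spread from 3.18 to 27.7 CPM.

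Further genes of lower response expressed in both lines were receptors, adaptors and enzymes. ALPP, placental alkaline phosphatase, had 5.94, 6.28 and 7.07 CPM in untreated PEO1 BRCA+, 7.96, 7.01 and 7.79 CPM in PEO1 BRCA+ at 2 h, 14.9, 14.3 and 20.8 CPM in untreated PEO4 and 0.667, 0.793 and 0.912 CPM in PEO4 at 2 h. Its treated libraries were all below the untreated ones in PEO4, with overlap in PEO1 BRCA+. The interaction was -4.62 (SE 0.22, edgeR adjusted p = 8.5e-14). DDIT4L, an inhibitor of mTOR signalling, had 7.04, 4.96 and 6.15 CPM in untreated PEO1 BRCA+, 5.32, 5.48 and 5.1 CPM in PEO1 BRCA+ at 2 h, 11.6, 3.57 and 9.26 CPM in untreated PEO4 and 0.305, 0.34 and 0.288 CPM in PEO4 at 2 h. Overlap was seen in PEO1 BRCA+ and not in PEO4, whose treated libraries were below the untreated ones. Its interaction was -4.52 (SE 0.47, edgeR adjusted p = 8.9e-07). GFRA1, the GDNF co-receptor, fell in PEO4 from 12.6 ± 7.08 to 0.598 ± 0.198 CPM (SD, n = 3), against 23.6 ± 1.15 and 21.7 ± 0.446 CPM in PEO1 BRCA+, an interaction of -4.29 (SE 0.55, edgeR adjusted p = 4.3e-05). PAG1, a membrane adaptor that recruits the kinase CSK, fell from 18.9 ± 4.06 to 1.2 ± 0.157 CPM in PEO4, with 4.49 ± 0.705 and 5.23 ± 0.582 CPM in PEO1 BRCA+ (interaction -4.18, edgeR adjusted p = 6e-12). UNC5B, a netrin receptor, fell in PEO4 from 172 ± 34.9 to 5.68 ± 0.602 CPM and had a log2FC of -0.89 in PEO1 BRCA+, an interaction of -4.04 (SE 0.21, edgeR adjusted p = 3.8e-10). COL5A2, a fibrillar collagen of the matrix list, was not among the genes expressed in both lines, with 0.548 ± 0.0835 and 0.687 ± 0.206 CPM in PEO1 BRCA+. It fell from 41.6 ± 22.2 to 1.17 ± 0.15 CPM in PEO4 (interaction -5.49, edgeR adjusted p = 0.00054). ALPP has close paralogs in the same gene cluster, so reads may have been split between them.

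Interferon-stimulated genes formed the second group of lower response. Type I interferon acts through the ISGF3 complex, which binds the interferon-stimulated response element (ISRE) in promoters of antiviral effector genes. Of 38 tested members of the list, 12 were lower in PEO4 (31.6%, against 4.92% of all tested genes), and the median interaction was -0.78. Over the alternatives, 10 to 15 were lower. IFI6, a mitochondrial protein that interferon induces, had 2.25, 3.39 and 2.24 CPM in untreated PEO1 BRCA+, 4.25, 3.9 and 4.15 CPM in PEO1 BRCA+ at 2 h, 224, 242 and 466 CPM in untreated PEO4 and 77.7, 94.6 and 68.3 CPM in PEO4 at 2 h. Neither line had overlapping groups, and treatment put the libraries below the untreated ones in PEO4 and above them in PEO1 BRCA+. Its interaction was -2.58 (SE 0.60, edgeR adjusted p = 0.0048). MX1, a dynamin-like GTPase that traps viral ribonucleoprotein, had 8.1, 14 and 5.97 CPM in untreated PEO1 BRCA+, 18.3, 18.1 and 18.8 CPM in PEO1 BRCA+ at 2 h, 188, 189 and 318 CPM in untreated PEO4 and 80.3, 76.1 and 75.1 CPM in PEO4 at 2 h. In each line treated and untreated libraries were apart, below in PEO4 and above in PEO1 BRCA+. MX1 fell by 1.58 in PEO4, and the interaction was -2.55 (SE 0.38, edgeR adjusted p = 0.00019). OAS3, which makes the activator of RNase L, fell in PEO4 from 393 ± 138 to 85.8 ± 8.23 CPM (SD, n = 3), with 77.8 ± 3.16 and 76.1 ± 4.88 CPM in PEO1 BRCA+ (interaction -2.16, edgeR adjusted p = 7.6e-05). IFITM1, which blocks viral entry at membranes, had 0.287, 0.454 and 0.22 CPM in untreated PEO1 BRCA+, 0.441, 0.388 and 0.507 CPM in PEO1 BRCA+ at 2 h, 87.9, 90.0 and 180.2 CPM in untreated PEO4 and 21.7, 26.1 and 17.6 CPM in PEO4 at 2 h. Every treated PEO4 library was below every untreated one, and the PEO1 BRCA+ groups overlapped. IFITM1 had an interaction of -2.90 (SE 1.07, edgeR adjusted p = 0.049), and it lost its call in 14 of 22 alternatives. Its PEO1 BRCA+ libraries held 5 to 17 counts. The mean untreated level was higher in PEO4 for each of the 4, and the same held in the separate untreated pair, where IFI6 was at 801 to 1067 CPM in PEO4 and 10.3 to 14.4 in BRCA2-deficient PEO1. At 6 h, against the same untreated libraries, the interactions were -4.40 for IFI6, -3.77 for MX1, -2.97 for OAS3 and -5.27 for IFITM1.

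The ISRE letters GAAANNGAAA were sought on both strands of the 300 bases from 250 before to 50 after each RefSeq start site. They stood in 18 of 30 interferon list promoters and 8 of the 11 of lower response that have a promoter sequence (72.7%), against 2.82% of the 12721 promoters of tested genes. The promoters of the 2 interferon genes named first by the size of their response are shown 5′ to 3′ on the gene's strand with the ISRE matches in capitals (RefSeq, GRCh38.p14). IFI6 lies at chr1:27672143-27672442, minus strand, with 3 matches, and IFITM1 at chr11:313790-314089, plus strand, with 2.
IFI6: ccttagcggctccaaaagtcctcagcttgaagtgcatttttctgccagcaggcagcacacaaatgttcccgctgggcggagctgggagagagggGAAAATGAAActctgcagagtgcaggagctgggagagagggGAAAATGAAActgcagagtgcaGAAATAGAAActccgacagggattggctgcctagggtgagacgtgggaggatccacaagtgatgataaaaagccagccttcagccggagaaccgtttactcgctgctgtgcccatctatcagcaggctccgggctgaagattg
IFITM1: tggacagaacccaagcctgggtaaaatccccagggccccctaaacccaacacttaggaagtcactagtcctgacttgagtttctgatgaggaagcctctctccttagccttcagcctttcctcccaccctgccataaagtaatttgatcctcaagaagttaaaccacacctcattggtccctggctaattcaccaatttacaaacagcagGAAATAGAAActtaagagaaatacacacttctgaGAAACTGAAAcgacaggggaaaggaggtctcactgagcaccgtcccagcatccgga
The matches of IFI6 start 156, 115 and 93 bases before its start site and those of IFITM1 40 and 6 bases before. The list was chosen as interferon-stimulated, so the share describes the list and not the response.

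Replication-dependent histone genes shared the direction, with 13 of 37 tested members lower (35.1%, against 4.92% of all tested genes) and a median of -1.11. These mRNAs end in a stem-loop and mostly lack a poly(A) tail, and the libraries were made from polyadenylated RNA, so a change in tail addition cannot be told apart from one in transcript level. H1-2, a linker histone, had 7.28, 6.61 and 7.29 CPM in untreated PEO1 BRCA+, 16.02, 13.7 and 13.99 CPM in PEO1 BRCA+ at 2 h, 11.99, 10.2 and 6.5 CPM in untreated PEO4 and 1.28, 1.3 and 1.49 CPM in PEO4 at 2 h. Groups did not overlap in either line, with the treated libraries below the untreated ones in PEO4 and above them in PEO1 BRCA+. Its interaction was -3.86 (SE 0.22, edgeR adjusted p = 2.9e-12), from log2FCs of -2.81 in PEO4 and 1.04 in PEO1 BRCA+, both called. H2BC12, a core histone that is also made as polyadenylated mRNA, fell in PEO4 from 18.3 ± 1.91 to 5.39 ± 0.255 CPM (SD, n = 3) with 10.3 ± 1.96 and 14.2 ± 0.959 in PEO1 BRCA+, an interaction of -2.23 (SE 0.16, edgeR adjusted p = 6.9e-11). H3C6 had 2, 2 and 5 counts in untreated PEO1 BRCA+, 12, 9 and 6 at 2 h, 10, 3 and 8 counts in untreated PEO4 and 3, 2 and 0 at 2 h, and its fitted interaction of -3.71 rests on those counts. The number of lower members was 5 under a minimum count of 50, which leaves fewer members to test, 6 when all libraries were thinned to the smallest total of 18699929 counts, and 7 without untreated PEO4 replicate 1. Of 47 DNA replication and 42 mitosis genes tested, 0 passed the test by edgeR or DESeq2, 25 and 9 of them had an unadjusted p under 0.05, and the median interactions were -0.10 and 0.00.

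WNT feedback genes and receptors such as AXIN2, APCDD1 and LGR6 fell in PEO4. WNT proteins bind Frizzled receptors and stabilise β-catenin, which with TCF/LEF factors induces negative feedback inhibitors such as AXIN2 and APCDD1. In the feedback list, 5 of 16 tested genes were lower (31.2%) and 1 higher (6.2%), against 4.92 and 6.10% of all tested genes. The median interaction of 0.09 was, however, close to that of all genes. AXIN2 had 0.91, 0.95 and 1.01 CPM in untreated PEO1 BRCA+, 0.85, 1.11 and 1.07 CPM in PEO1 BRCA+ at 2 h, 29.96, 10.9 and 37.7 CPM in untreated PEO4 and 2.92, 3.34 and 2.64 CPM in PEO4 at 2 h. The treated PEO4 libraries all lay below the untreated ones, with overlapping groups in PEO1 BRCA+. AXIN2 fell by 3.15 in PEO4, and the interaction was -3.24 (SE 0.68, edgeR adjusted p = 0.002). APCDD1, an inhibitor of WNT at the cell surface, had 1.15, 0.992 and 0.659 CPM in untreated PEO1 BRCA+, 0.378, 0.776 and 1.1 CPM in PEO1 BRCA+ at 2 h, 218, 176 and 281 CPM in untreated PEO4 and 12.6, 12.97 and 11.9 CPM in PEO4 at 2 h. In PEO4 the treated libraries were below the untreated libraries without overlap, and in PEO1 BRCA+ the groups overlapped. The interaction of APCDD1 was -3.88 (SE 0.56, edgeR adjusted p = 8.4e-05), and it was barely expressed in PEO1 BRCA+. NKD1, which restrains Dishevelled, had an interaction of -2.87, and the nuclear effector LEF1 had 5, 3 and 5 counts in untreated PEO1 BRCA+, 7, 9 and 5 at 2 h, 18, 2 and 13 counts in untreated PEO4 and 0, 0 and 2 at 2 h. LEF1 was 28.8 times lower at 2 h in PEO4 by summed counts (exact 95% interval 7.37 to 248, counting error only), and its interaction of -4.62 became -7.03 without PEO4 2 h replicate 3. Of 28 ligands and receptors, 5 were lower (17.9%) and 2 higher (7.1%). LGR6, a receptor for R-spondins, fell in PEO4 from 92.2 ± 40.9 to 7.02 ± 0.497 CPM (SD, n = 3) and held 13.96 ± 1.71 and 12.7 ± 0.587 CPM in PEO1 BRCA+, an interaction of -3.58 (SE 0.39, edgeR adjusted p = 1.1e-05). The ligand WNT7A had an interaction of -3.20, from log2FCs of -2.23 in PEO4 and 0.97 in PEO1 BRCA+, and WNT10A fell in both lines, by 3.60 and 1.10, with an interaction of -2.50. WNT16 was the opposite case, at 3.67 (SE 0.54, edgeR adjusted p = 8.8e-06), with 0.564 ± 0.277 and 3.34 ± 0.363 CPM in PEO4 and 0.42 ± 0.158 and 0.192 ± 0.0141 CPM in PEO1 BRCA+.

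Ligands of the BMP and TGF-β family, which signal through receptor kinases to SMAD factors, moved in a split way. Of 22 tested ligands and antagonists, 5 were lower (22.7%) and 3 higher (13.6%), with a median of -0.17. Of 16 ID and SMAD feedback genes, 6 were lower (37.5%) and 2 higher, with a median of -0.27. Over all tested genes the shares were 4.92% lower and 6.10% higher, so both lists lay above them in both directions. BMP7 had 5.75, 7.64 and 8.78 CPM in untreated PEO1 BRCA+, 9.26, 9.93 and 9.79 CPM in PEO1 BRCA+ at 2 h, 178, 87.2 and 212 CPM in untreated PEO4 and 15.8, 17.8 and 16.3 CPM in PEO4 at 2 h. The treated libraries were below the untreated ones in PEO4 and above them in PEO1 BRCA+, without overlap. Its interaction was -3.64 (SE 0.40, edgeR adjusted p = 1.1e-05). BMP4 (interaction -4.17), TGFB2 (-4.38) and the activin subunit INHBB (-3.17) also fell in PEO4. The other activin subunit, INHBA, was higher and had 133, 122 and 142 CPM in untreated PEO1 BRCA+, 142, 147 and 148 CPM in PEO1 BRCA+ at 2 h, 12.4, 26.7 and 9.77 CPM in untreated PEO4 and 167, 196 and 167 CPM in PEO4 at 2 h. Treated libraries were all above the untreated ones in both lines. For INHBA the interaction was 3.31 (SE 0.32, edgeR adjusted p = 3.9e-06). FST, the activin-binding antagonist follistatin, stood at 3.60 (SE 0.55, edgeR adjusted p = 1.2e-05), from log2FCs of 1.23 in PEO4 and -2.37 in PEO1 BRCA+, and at 4.42 without untreated PEO4 replicate 2. Among feedback genes, the pseudoreceptor BAMBI fell in PEO4 from 158 ± 76.8 to 19.4 ± 0.397 CPM (SD, n = 3) and had 43.3 ± 5.64 and 38.6 ± 0.857 CPM in PEO1 BRCA+ (interaction -2.86, edgeR adjusted p = 0.00016). SMAD6 (-1.39), SMAD7 (-1.06) and ID4 (-1.37) were lower too, whereas PMEPA1, a TGF-β induced inhibitor, was higher at 1.46 (SE 0.12, edgeR adjusted p = 5.7e-09).

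**Figure D4:**
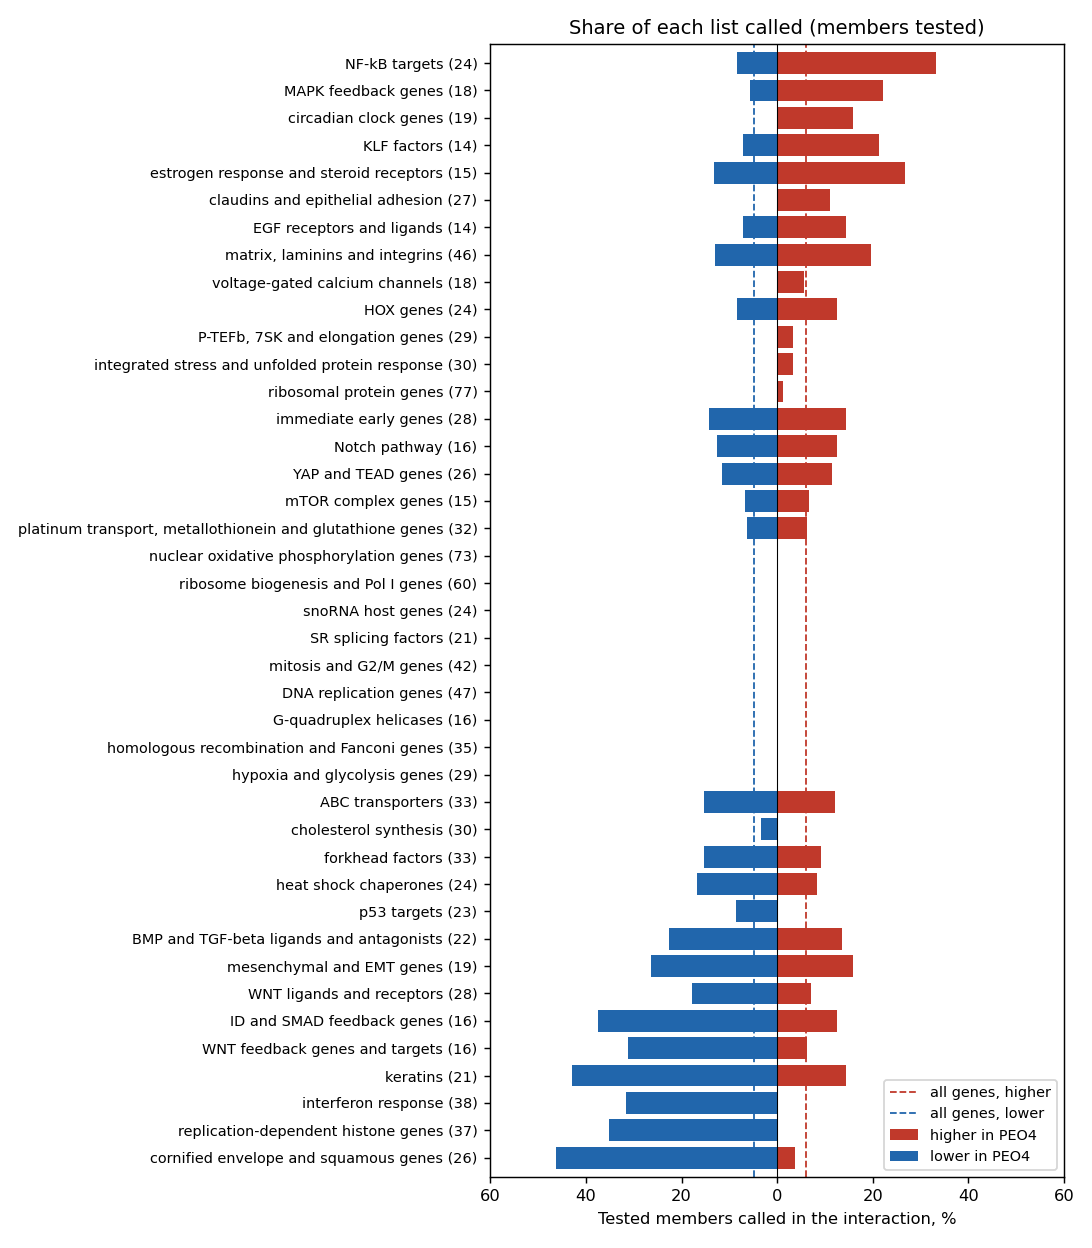
For each gene list, the percentage of tested members with a higher and with a lower 2 h response in PEO4, beside the percentages over all tested genes (6.10 and 4.92). Squamous, keratin, histone and interferon lists lie to the lower side and the NF-kB list to the higher side.

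The 10 largest positive interactions among genes expressed in both lines held VIM with its antisense gene, 2 channel subunits, and secreted and adhesion proteins. VIM, the intermediate filament of mesenchymal cells, had 13.03, 15.4 and 13.96 CPM in untreated PEO1 BRCA+, 7.21, 8.27 and 7.37 CPM in PEO1 BRCA+ at 2 h, 8.36, 27.7 and 3.18 CPM in untreated PEO4 and 126, 153 and 108 CPM in PEO4 at 2 h. Neither line had overlapping groups, and treatment put the libraries above the untreated ones in PEO4 and below them in PEO1 BRCA+. The interaction was 4.22 (SE 0.67, edgeR adjusted p = 0.0003), and 5.35 without untreated PEO4 replicate 2, the highest of the untreated PEO4 libraries. VIM-AS1, which overlaps VIM on the other strand, had an interaction of 4.11 (5.26 without that library), and because the counting is not stated to use strand its reads cannot be told apart from those of VIM. IGFBP5, a secreted binder of insulin-like growth factors, had 23.4, 19.8 and 30.2 CPM in untreated PEO1 BRCA+, 10.3, 13.9 and 12.1 CPM in PEO1 BRCA+ at 2 h, 0.649, 5.62 and 0.507 CPM in untreated PEO4 and 37.9, 53.7 and 28.04 CPM in PEO4 at 2 h. In each line treated and untreated libraries were apart, above in PEO4 and below in PEO1 BRCA+. Its interaction was 5.22 (SE 0.66, edgeR adjusted p = 4.3e-05), and 7.09 without that library. CDH6, a cadherin of kidney and ovarian tumours, had 62.8, 66.5 and 62.6 CPM in untreated PEO1 BRCA+, 22.2, 23.8 and 27.5 CPM in PEO1 BRCA+ at 2 h, 19.7, 54.7 and 15.8 CPM in untreated PEO4 and 233, 233 and 202 CPM in PEO4 at 2 h. Groups did not overlap in either line, with the treated libraries above the untreated ones in PEO4 and below them in PEO1 BRCA+. CDH6 rose by 2.90 in PEO4 and fell by 1.39 in PEO1 BRCA+, and the interaction was 4.29 (SE 0.45, edgeR adjusted p = 9.2e-06), and 5.03 without the same library. SRPX, a sushi-repeat protein, had 8.05, 8.35 and 6.37 CPM in untreated PEO1 BRCA+, 12.03, 13.03 and 12.3 CPM in PEO1 BRCA+ at 2 h, 5.07, 11.5 and 5.67 CPM in untreated PEO4 and 191, 185 and 183 CPM in PEO4 at 2 h. In both lines every treated library was above every untreated one. SRPX had an interaction of 3.96 (SE 0.28, edgeR adjusted p = 9.5e-08). KCNF1, a modifier subunit of voltage-gated potassium channels, rose in PEO4 from 19.2 ± 9.71 to 258 ± 45.3 CPM (SD, n = 3), with 26.4 ± 2.99 and 20.1 ± 0.771 CPM in PEO1 BRCA+, an interaction of 4.15 (SE 0.37, edgeR adjusted p = 1.9e-06).

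SCNN1G, the γ subunit of the epithelial sodium channel, had 15.1, 21.2 and 18.97 CPM in untreated PEO1 BRCA+, 5.79, 5.74 and 5.88 CPM in PEO1 BRCA+ at 2 h, 1.21, 1.05 and 0.783 CPM in untreated PEO4 and 9.89, 9.57 and 9.27 CPM in PEO4 at 2 h. The treated libraries were above the untreated ones in PEO4 and below them in PEO1 BRCA+, without overlap. The interaction of 4.89 (SE 0.21, edgeR adjusted p = 1.8e-14) came from both sides, a rise of 3.23 and a fall of 1.67. BVES, a Popeye-domain protein that binds cAMP, was alike, with 8.2, 7.56 and 10.1 CPM in untreated PEO1 BRCA+, 2.71, 3.57 and 3.82 CPM in PEO1 BRCA+ at 2 h, 2.25, 4.32 and 2.53 CPM in untreated PEO4 and 18.9, 19.2 and 19.2 CPM in PEO4 at 2 h. Neither line had overlapping groups, and treatment put the libraries above the untreated ones in PEO4 and below them in PEO1 BRCA+. Its interaction was 4.02 (SE 0.22, edgeR adjusted p = 1.5e-12). PTX3, a soluble pentraxin of innate immunity, rose in PEO4 from 0.333 ± 0.19 to 6.66 ± 0.148 CPM (SD, n = 3) and held 5.16 ± 1.52 and 4.51 ± 0.245 CPM in PEO1 BRCA+ (interaction 4.53, edgeR adjusted p = 7.3e-11). TRHDE, the ectoenzyme that degrades thyrotropin-releasing hormone, rose in PEO4 from 2.19 ± 1.64 to 31.3 ± 1.93 CPM with 14.1 ± 0.886 and 10.9 ± 0.653 CPM in PEO1 BRCA+, an interaction of 4.24 (SE 0.32, edgeR adjusted p = 9.6e-08), and 4.93 without untreated PEO4 replicate 2. PTX3 lies within VEPH1 and TRHDE overlaps an antisense gene, so part of their reads may belong to the partner. The matrix glycoprotein THBS1 rose from 27.3 ± 10.3 to 498 ± 79.4 CPM in PEO4 and stood at 459 ± 35.5 and 775 ± 40.03 CPM in PEO1 BRCA+ (interaction 3.44, edgeR adjusted p = 3.1e-07).

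As lists, matrix and mesenchymal genes did not move one way. Of 46 matrix, laminin and integrin genes, 9 were higher and 6 lower (median 0.07), and of 19 mesenchymal genes 3 were higher and 5 lower (median 0.21). The 9 higher matrix genes became 5 when only the 12 libraries compared were fitted and 4 without untreated PEO4 replicate 1. The 5 lower mesenchymal genes became 3 without PEO4 2 h replicate 1 and without untreated PEO4 replicate 2 or 3. CD44, the hyaluronan receptor, rose from 91.8 ± 44.9 to 542 ± 16.9 CPM in PEO4 (SD, n = 3), with 741 ± 35.01 and 985 ± 43.1 CPM in PEO1 BRCA+ (interaction 2.15, edgeR adjusted p = 0.0002). THY1, a fibroblast marker and surface glycoprotein, rose from 8.65 ± 4.93 to 75 ± 13.8 CPM in PEO4 and had 114 ± 10.9 and 129.9 ± 1.35 CPM in PEO1 BRCA+, an interaction of 2.95 (SE 0.32, edgeR adjusted p = 1.1e-05). Summed over 9 fibroblast markers the level was 42.0 to 52.8 CPM in untreated PEO4 and 71.1 to 102 CPM at 2 h, against 117 to 142 and 147 to 149 CPM in PEO1 BRCA+, with LUM and COL3A1 at 0 in PEO1 BRCA+ and DCN at 0 in PEO4 at 2 h. Of the 6 tested markers, THY1 alone was called as rising in PEO4 and 2 were called as falling. Their median log2FC in PEO4 was -0.51 and their median interaction -0.93. Whether other cells contributed was not tested. S100A4 (-2.42) and N-cadherin, CDH2 (-1.16), fell in PEO4. SNAI2, the transcription factor Slug, rose by 1.70 in PEO1 BRCA+ against 0.58 in PEO4, an interaction of -1.12 that lost its call in 7 of 22 alternatives, among them without untreated PEO4 replicate 2 (-0.92). For the epithelial cadherin CDH3 the interaction was 2.76 (SE 0.13, edgeR adjusted p = 1.4e-13), with 9.99 ± 1.92 and 80.5 ± 5.17 CPM in PEO4 and 148 ± 18.3 and 178 ± 1.86 CPM in PEO1 BRCA+. CLDN11, a tight junction claudin, rose by 1.07 in PEO4 and fell by 1.07 in PEO1 BRCA+ (interaction 2.15, edgeR adjusted p = 3.5e-10). Of 27 claudins and adhesion genes, 3 were higher (11.1%).

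Chemokine genes of the NF-κB list had a higher response in PEO4. NF-κB dimers released from IκB bind κB sites and induce chemokines that draw neutrophils, cytokines and their own inhibitors. Of 24 tested members 8 were higher (33.3%) and 2 lower (8.3%), against 6.10 and 4.92% of all tested genes. The median was 0.27, and 6 to 9 members were higher over the alternatives. CXCL8, interleukin 8, had 56.7, 49.7 and 61.9 CPM in untreated PEO1 BRCA+, 40.9, 46.02 and 41.6 CPM in PEO1 BRCA+ at 2 h, 0.649, 1.21 and 0.276 CPM in untreated PEO4 and 5.61, 6.45 and 6.96 CPM in PEO4 at 2 h. In each line treated and untreated libraries were apart, above in PEO4 and below in PEO1 BRCA+. The interaction was 3.57 (SE 0.26, edgeR adjusted p = 2.6e-09). CXCL2 had 14.9, 7.19 and 13.2 CPM in untreated PEO1 BRCA+, 3.97, 4.16 and 3.1 CPM in PEO1 BRCA+ at 2 h, 1.13, 1.26 and 0.553 CPM in untreated PEO4 and 4.36, 5.75 and 4.56 CPM in PEO4 at 2 h. Groups did not overlap in either line, with the treated libraries above the untreated ones in PEO4 and below them in PEO1 BRCA+. CXCL2 rose by 2.32 in PEO4 and fell by 1.64 in PEO1 BRCA+ (interaction 3.96, edgeR adjusted p = 8e-08). IL6 had 14.3, 10.8 and 17.1 CPM in untreated PEO1 BRCA+, 4.72, 5.07 and 4.33 CPM in PEO1 BRCA+ at 2 h, 1.56, 2.71 and 1.24 CPM in untreated PEO4 and 4.58, 4.84 and 3.67 CPM in PEO4 at 2 h. The treated libraries were above the untreated ones in PEO4 and below them in PEO1 BRCA+, without overlap. IL6 had an interaction of 2.83 (SE 0.27, edgeR adjusted p = 2.4e-08). CXCL1 stood at 2.96 (3.59 without untreated PEO4 replicate 2) and CXCL3 at 1.84, which lost its call under some alternatives, whereas NFKB1, the p105 subunit itself, fell in PEO4 (interaction -1.43) and IL32 was lower at -1.25. Untreated PEO4 had 0.71 ± 0.467 CPM of CXCL8 (SD, n = 3) against 56.1 ± 6.13 in untreated PEO1 BRCA+, and the 2 h level in PEO4, 6.34 ± 0.682 CPM, was below both PEO1 BRCA+ groups.

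The κB motif, sought on both strands of the same window, stood in 12 of the 20 promoters of the NF-κB list, in 5 of 7 of the members of higher response (71.4%) and in 2 of 2 of those of lower response, against 6.51% of all promoters of tested genes, so the share describes the list and not the direction of the response. The TEAD letters CATTCC stood in 11.3% of all promoters, in 6 of 20 of the YAP and TEAD list, in 2 of 2 of its members of higher response and in 0 of 2 of those of lower response. The promoters of CXCL5 (chr4:73998628-73998927, minus strand) and CXCL2 (chr4:74099146-74099445, minus strand), the chemokines named by the size of their response, are shown with the κB matches in capitals, and that of CCN2 (chr6:131951323-131951622, minus strand) with its 3 TEAD matches in capitals, which read CATTCC on the opposite strand (RefSeq, GRCh38.p14).
CXCL5: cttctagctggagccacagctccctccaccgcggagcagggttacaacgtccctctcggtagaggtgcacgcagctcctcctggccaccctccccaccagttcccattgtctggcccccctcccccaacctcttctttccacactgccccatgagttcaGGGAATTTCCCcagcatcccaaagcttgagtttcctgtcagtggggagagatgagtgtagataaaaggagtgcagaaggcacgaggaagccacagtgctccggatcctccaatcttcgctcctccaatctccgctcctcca
CXCL2: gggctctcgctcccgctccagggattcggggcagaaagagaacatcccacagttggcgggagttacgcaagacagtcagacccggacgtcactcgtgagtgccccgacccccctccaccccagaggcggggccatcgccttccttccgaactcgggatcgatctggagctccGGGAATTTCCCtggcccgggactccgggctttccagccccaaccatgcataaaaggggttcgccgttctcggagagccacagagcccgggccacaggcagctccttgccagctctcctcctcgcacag
CCN2: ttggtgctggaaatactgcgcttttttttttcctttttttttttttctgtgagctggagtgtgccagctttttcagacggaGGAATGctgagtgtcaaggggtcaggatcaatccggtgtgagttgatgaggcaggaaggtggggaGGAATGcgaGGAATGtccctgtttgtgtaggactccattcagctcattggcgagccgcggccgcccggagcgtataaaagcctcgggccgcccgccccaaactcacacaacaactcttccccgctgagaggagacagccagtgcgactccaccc
The κB matches start 91 and 90 bases before the start site of CXCL5 and 78 and 77 before that of CXCL2, as overlapping readings on both strands, and the TEAD matches 169, 104 and 95 bases before that of CCN2. These matches are a description of the letters and say nothing of binding.

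CCN2 and ANKRD1 are target genes of YAP and TEAD, which carry the output of the Hippo pathway. CCN2, connective tissue growth factor, had 85.7, 49.5 and 83.5 CPM in untreated PEO1 BRCA+, 53.6, 50.3 and 45.5 CPM in PEO1 BRCA+ at 2 h, 121, 102 and 42.01 CPM in untreated PEO4 and 583, 664 and 572 CPM in PEO4 at 2 h. Its treated libraries were all above the untreated ones in PEO4, with overlap in PEO1 BRCA+. The interaction was 3.32 (SE 0.43, edgeR adjusted p = 4.9e-05). ANKRD1 rose from 2.04 ± 0.595 to 12.7 ± 1.99 CPM in PEO4 (SD, n = 3) with 5.36 ± 0.119 and 3.62 ± 0.343 CPM in PEO1 BRCA+, an interaction of 3.21 (SE 0.24, edgeR adjusted p = 2e-10), and CCN1 stood at 2.02. The YAP list did not move as a whole, with a median of -0.15. Of its 26 tested genes 3 were higher (11.5%), CCN2 and ANKRD1 included, and 3 were lower (11.5%), DLC1 at -2.33 included. Over all tested genes the shares were 6.10% higher and 4.92% lower. DEPTOR, an inhibitory subunit of mTOR complexes, had 3.79, 4.75 and 5.05 CPM in untreated PEO1 BRCA+, 5.07, 4.42 and 3.998 CPM in PEO1 BRCA+ at 2 h, 1.47, 3.92 and 1.61 CPM in untreated PEO4 and 118, 137 and 101 CPM in PEO4 at 2 h. Overlap was seen in PEO1 BRCA+ and not in PEO4, whose treated libraries were above the untreated ones. DEPTOR rose by 5.70 in PEO4 and its interaction was 5.72 (SE 0.34, edgeR adjusted p = 6.8e-09), or 6.28 without untreated PEO4 replicate 2, while PRR5L, a partner of mTORC2, was at -1.20, and no other of 15 mTOR complex genes was called. MECOM, a zinc finger oncoprotein amplified in ovarian carcinoma, rose from 2, 5 and 3 to 246, 197 and 272 counts in PEO4, and had 44, 72 and 58 and then 103, 121 and 124 counts in PEO1 BRCA+, where the treated libraries were deeper, an interaction of 4.93 (SE 0.34, edgeR adjusted p = 6.3e-11).

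Signalling feedback and early response genes gave smaller contrasts. ERRFI1, the feedback inhibitor of the EGF receptor, had 80.6, 72.7 and 90.3 CPM in untreated PEO1 BRCA+, 81, 84.03 and 80.9 CPM in PEO1 BRCA+ at 2 h, 61.5, 73.2 and 59.6 CPM in untreated PEO4 and 244, 255 and 231 CPM in PEO4 at 2 h. Every treated PEO4 library was above every untreated one, and the PEO1 BRCA+ groups overlapped. Its interaction was 1.90 (SE 0.10, edgeR adjusted p = 8.5e-13). The phosphatases DUSP2 (1.65), DUSP4 (1.75) and DUSP8 (1.84) had interactions above 1 too, with DUSP8 at 1.11 without PEO4 2 h replicate 2. DUSP4 was higher at 2 h in both lines. DUSP2 overlapped in PEO4 (5.8 to 7.4 CPM untreated, 4.1 to 6.1 at 2 h). In PEO1 BRCA+ it fell from 1.58 to 2.27 CPM to 0.298 to 0.535 CPM. DUSP8 likewise overlapped in PEO4 and was lower at 2 h in PEO1 BRCA+. Of 18 MAPK feedback genes, 4 were higher (22.2%) and 1 lower (5.6%), against 6.10 and 4.92% of all tested genes. Of the ligands of the EGF receptor, EREG was higher at 1.57 (edgeR adjusted p = 0.00011), while the receptor ERBB3 fell in PEO4 from 198 ± 47.98 to 83.2 ± 5.51 CPM (SD, n = 3), an interaction of -1.09 that lost its call under some alternatives. Of 14 KLF factors 3 were higher (21.4%) and 1 lower (7.1%), with a median of 0.78. KLF6 had 216, 169 and 206 CPM in untreated PEO1 BRCA+, 172, 175 and 171 CPM in PEO1 BRCA+ at 2 h, 117, 116 and 65.7 CPM in untreated PEO4 and 319, 356 and 317 CPM in PEO4 at 2 h. The treated PEO4 libraries all lay above the untreated ones, with overlapping groups in PEO1 BRCA+. KLF6 had an interaction of 1.92 (SE 0.23, edgeR adjusted p = 1.8e-05), KLF7 of 2.00, KLF4 of 1.54 and KLF5 of -1.64. Of 28 immediate early genes 4 were higher and 4 lower (14.3% each, and 7 lower without untreated PEO4 replicate 3), with the nuclear receptor NR4A3 at 2.64 and ARC at -2.11. EGR1 and FOS fell in both lines: EGR1 by 3.54 in PEO4 and 3.76 in PEO1 BRCA+, FOS by 3.74 and 2.28, and their interactions of 0.22 (edgeR adjusted p = 0.76) and -1.46 (edgeR adjusted p = 0.18) did not pass the test.

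**Figure D5:**
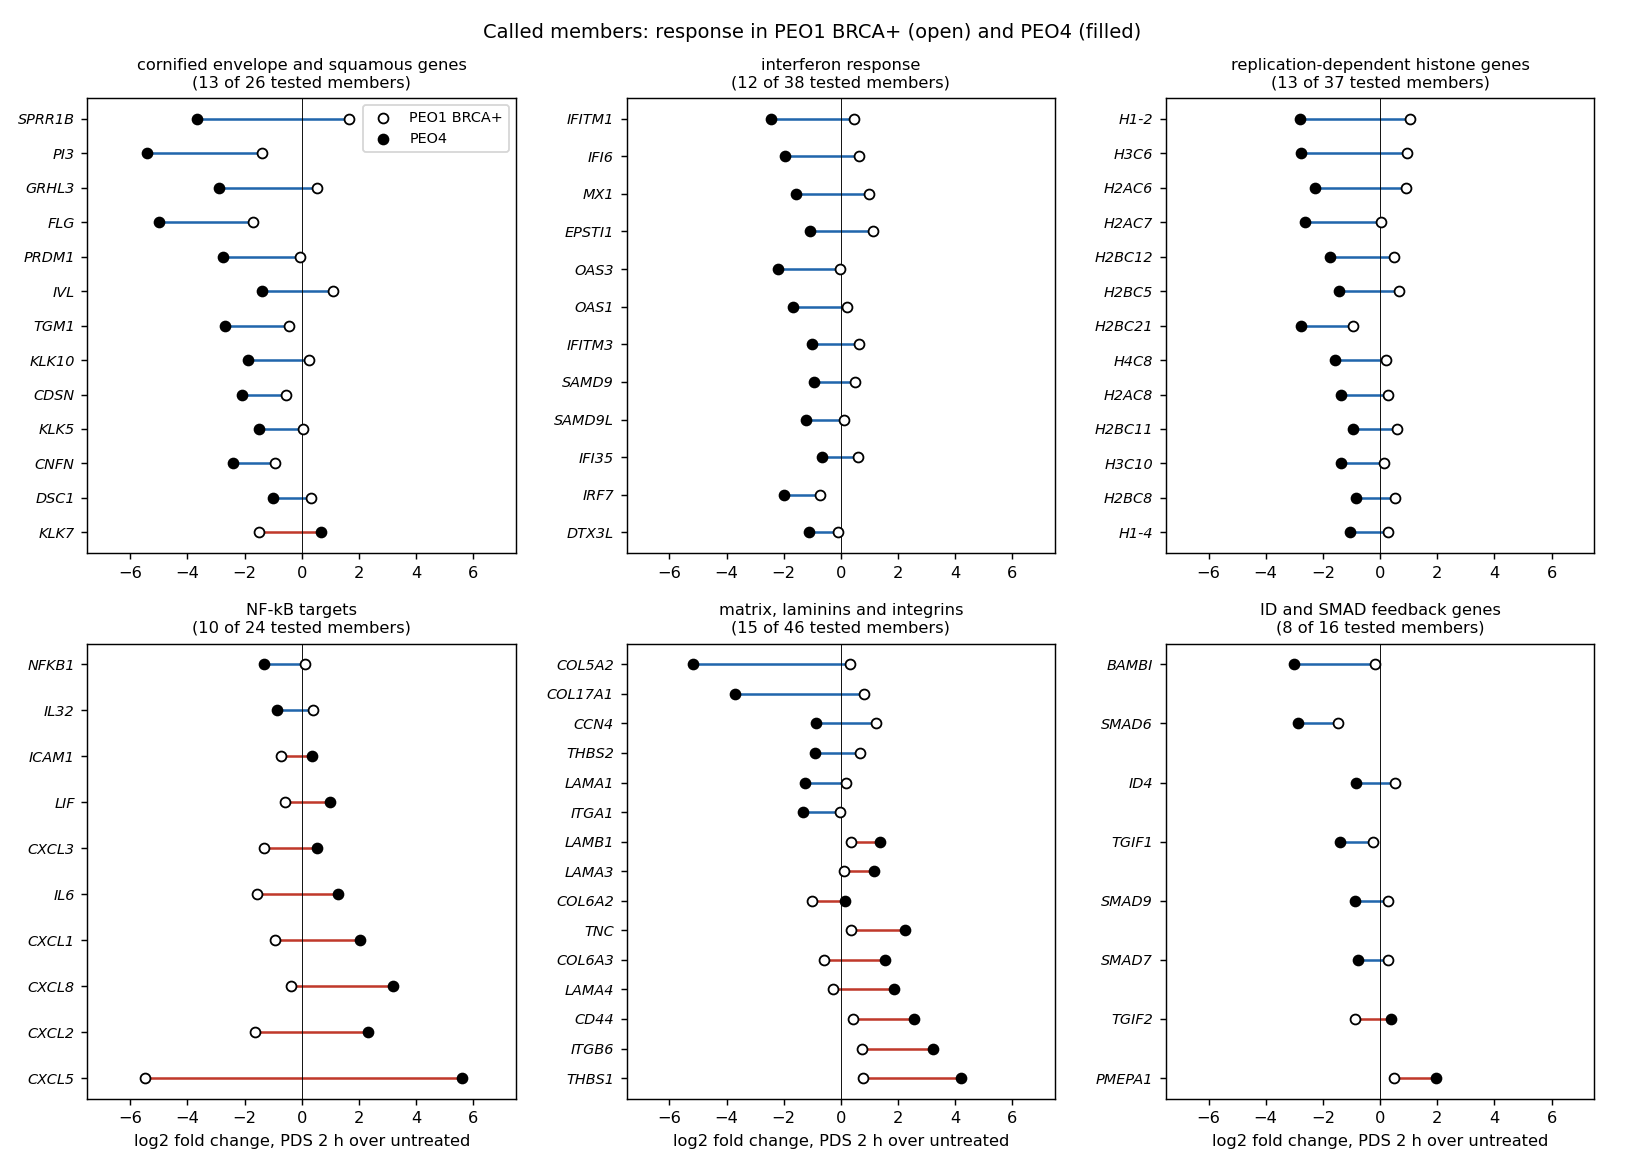
The 2 h log2FC in PEO1 BRCA+ (open circles) and PEO4 (filled circles) of the called members of 6 gene lists, joined by a line that is blue for a lower and red for a higher response in PEO4. All 12 interferon and all 13 histone members have the PEO4 point to the left of 0, and the NF-kB list has 8 members with the PEO4 point to the right of the PEO1 BRCA+ point.

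Among transport genes, the drug and organic anion exporter ABCC3 fell from 126 ± 41.9 to 6.06 ± 0.758 CPM in PEO4 (SD, n = 3), with 55.2 ± 4.76 and 41.5 ± 1.95 CPM in PEO1 BRCA+. Its libraries held 51.99, 52.8 and 60.6 CPM in untreated PEO1 BRCA+, 43.5, 39.7 and 41.3 CPM in PEO1 BRCA+ at 2 h, 134, 80.8 and 163 CPM in untreated PEO4 and 6.11, 6.79 and 5.28 CPM in PEO4 at 2 h. Treated libraries were all below the untreated ones in both lines. The interaction was -3.97 (SE 0.29, edgeR adjusted p = 1.9e-07). Of 33 ABC transporters 5 were lower (15.2%) and 4 higher (12.1%), against 4.92 and 6.10% of all tested genes. The 4 became 2 under a minimum count of 50. ABCB4, a phospholipid floppase, stood at 2.96 on 0, 3 and 4 counts in untreated PEO4. Among 32 platinum transport, metallothionein and glutathione genes, 2 were higher and 2 lower (6.2% each), near the shares over all tested genes. SLC22A3, an organic cation transporter, had 100.3, 116 and 94.7 CPM in untreated PEO1 BRCA+, 92.6, 94.3 and 98.3 CPM in PEO1 BRCA+ at 2 h, 3.12, 19.8 and 4.15 CPM in untreated PEO4 and 92.05, 96.5 and 96.6 CPM in PEO4 at 2 h. In PEO4 the treated libraries were above the untreated libraries without overlap, and in PEO1 BRCA+ the groups overlapped. SLC22A3 had an interaction of 3.56 (SE 0.52, edgeR adjusted p = 0.00016), and 4.83 without untreated PEO4 replicate 2. Its neighbour and relative SLC22A2 stood at 3.59 (4.78 without that library) and the metallothionein MT1G at -2.48, the latter from a rise of 1.86 in PEO1 BRCA+.

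Of 15 estrogen response genes and steroid receptors, 4 were higher (26.7%) and 2 lower (13.3%), against 6.10 and 4.92% of all tested genes. CA12, a carbonic anhydrase induced by estrogen receptor, had 1.87, 1.9 and 2.11 CPM in untreated PEO1 BRCA+, 2.46, 2.48 and 2.62 CPM in PEO1 BRCA+ at 2 h, 0.346, 0.854 and 0.507 CPM in untreated PEO4 and 11.2, 12.99 and 8.54 CPM in PEO4 at 2 h. In both lines every treated library was above every untreated one. CA12 had an interaction of 3.92 (SE 0.31, edgeR adjusted p = 5.2e-10) at 2 h and 0.31 at 6 h. GREB1 rose from 20.9 ± 7.86 to 99.4 ± 28.4 CPM in PEO4 (SD, n = 3) and went from 6.47 ± 1.17 to 3.17 ± 0.282 CPM in PEO1 BRCA+, an interaction of 3.29 (SE 0.44, edgeR adjusted p = 6.7e-05). Of 19 clock genes 3 were higher (15.8%): the repressor BHLHE41 (3.24, log2FCs 1.86 in PEO4 and -1.38 in PEO1 BRCA+, and 3.89 without untreated PEO4 replicate 2), PER3 (1.10, from a fall of 1.39 in PEO1 BRCA+) and ARNTL (1.08), which lost its call under some alternatives. BHLHE41 overlaps SSPN. Of 33 forkhead factors 5 were lower (3 with thinned libraries) and 3 higher, of 24 HOX genes 3 were higher and 2 lower, with HOXB9 at 1.95 and HOXB5 at 1.51, and of 16 Notch genes 2 were each way, NRARP at -2.76 and MFNG at 2.11 being the farthest. The ovarian antigen WFDC2 was higher at 1.80 (edgeR adjusted p = 9.2e-06), from a fall of 1.30 in PEO1 BRCA+. Single calls were TRIB3 of 30 stress response genes (1.33), ELL2 of 29 elongation genes (1.33), CACNB2 of 18 calcium channel genes (1.32), the leukocyte marker CD14 (1.57) and the endothelial marker VWF (-2.13). Of these ELL2, CACNB2 and VWF lost their call under at least 1 alternative. The leukocyte list summed to 33.8 to 57.1 CPM in untreated PEO4 and 73.6 to 84.0 CPM at 2 h, against 38.9 to 41.6 and 45.2 to 49.0 CPM in PEO1 BRCA+, with PTPRC, CD3E, CD3D, CD2 and MS4A1 at 0 in all 4 groups, and most of that sum is CD68 (42.4 and 72.4 CPM on average in PEO4). The endothelial list summed to at most 3.96 CPM in any library. The part of other cells in these values was not tested.

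Among genes called in opposite directions in the lines, most of those with the largest fitted interactions had few counts in at least 1 group, and these are given as counts. The neutrophil chemokine CXCL5 had 4, 3 and 5 counts in untreated PEO1 BRCA+, 0, 0 and 0 at 2 h, 0, 0 and 0 counts in untreated PEO4 and 7, 3 and 12 at 2 h, which allows at least a 1.36-fold rise in PEO4 against a floor of 3 counts per library, and a fitted interaction of 11.12 that is no bound. MUC5B, a gel-forming mucin, had 2, 2 and 7 counts in untreated PEO1 BRCA+, 0, 0 and 1 at 2 h, 4, 7 and 3 counts in untreated PEO4 and 50, 108 and 52 at 2 h. It was 8.59 times higher at 2 h in PEO4 (exact 95% interval of counting error 5.01 to 15.99) and 16.9 times lower in PEO1 BRCA+ (2.45 to 725). TNFRSF18, the receptor GITR, had 4, 4 and 18 counts in untreated PEO1 BRCA+, 2, 1 and 0 at 2 h, 31, 14 and 36 counts in untreated PEO4 and 292, 482 and 262 at 2 h, a fold of 7.33 higher in PEO4 (5.84 to 9.30) and 13.3 lower in PEO1 BRCA+ (4.07 to 68.5). UBXN10, a cilium protein, had 16, 16 and 11 counts in untreated PEO1 BRCA+, 5, 6 and 3 at 2 h, 0, 0 and 0 counts in untreated PEO4 and 3, 5 and 2 at 2 h. In the reverse direction, FLRT2, a guidance receptor ligand, had 14, 14 and 11 counts in untreated PEO1 BRCA+, 87, 110 and 89 at 2 h, 11, 5 and 4 counts in untreated PEO4 and 1, 0 and 2 at 2 h, 11.6 times lower in PEO4 (3.45 to 61.2) and 4.79 times higher in PEO1 BRCA+ (3.42 to 6.87). The sialidase gene NEU2 had 0, 0 and 1 counts in untreated PEO1 BRCA+, 4, 6 and 7 at 2 h, 16, 8 and 8 counts in untreated PEO4 and 1, 2 and 0 at 2 h, and gastrin, GAST, 1, 0 and 2 counts in untreated PEO1 BRCA+, 8, 5 and 8 at 2 h, 26, 23 and 24 counts in untreated PEO4 and 4, 8 and 6 at 2 h. GAST was 7.08 times lower at 2 h in PEO4 (4.18 to 12.6) and 4.57 times higher in PEO1 BRCA+ (1.36 to 23.9).

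Some tested genes were silent in one line, with at most 3 counts in each of its 6 libraries. Of 163 silent in PEO1 BRCA+, 6 were called higher and 4 lower, and of 182 silent in PEO4, 1 and 5. All lie below the shares over all tested genes, 6.10% higher and 4.92% lower. PLEKHS1, a pleckstrin homology domain protein, had 2, 2 and 0 counts in untreated PEO1 BRCA+, 1, 3 and 0 at 2 h, 2, 6 and 0 counts in untreated PEO4 and 268, 322 and 230 at 2 h, a 58.7-fold rise in PEO4 (exact 95% interval of counting error 29.7 to 136). Its fitted interaction was 6.41, and 7.80 without untreated PEO4 replicate 2. NR5A2, a nuclear receptor, rose by 1.58 in PEO1 BRCA+, from 4.52 ± 1.05 to 13.5 ± 1.07 CPM (SD, n = 3), and had at most 1 count in any PEO4 library. Likewise CDH11, a mesenchymal cadherin, rose by 1.32 in PEO1 BRCA+ and had at most 1 count in any PEO4 library, so for both genes the rise is measured and the size of the interaction is not, and each lost its call under some alternatives. FOXF2 had 0, 4 and 2 counts in untreated PEO4 and 0 in each treated library, with 16.6 ± 1.94 and 15.8 ± 1.04 CPM in PEO1 BRCA+. Its fitted interaction of -4.52 was -3.56 without untreated PEO4 replicate 2, where its call was lost. The heat shock gene HSPA1A, whose reads are hard to tell apart from its near-identical copy HSPA1B, had 5, 14 and 6 counts in untreated PEO1 BRCA+, 2, 2 and 3 at 2 h, 11, 16 and 9 counts in untreated PEO4 and 0, 0 and 0 at 2 h, at least 7.05-fold lower at 2 h in PEO4 against the floor. CRYAB, a small heat shock protein of the lens and muscle, fell by 2.64 in PEO4 and had a log2FC of -0.77 in PEO1 BRCA+ (interaction -1.87, edgeR adjusted p = 2.6e-07). Of 24 chaperones 2 were higher (8.3%) and 4 lower (16.7%), or 2 lower without PEO1 BRCA+ 2 h replicate 3.

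Several lists had no called member. Among 345 genes of 9 lists, namely homologous recombination and Fanconi genes (35), G4 helicases (16), DNA replication (47), mitosis (42), SR splicing factors (21), snoRNA host genes (24), ribosome biogenesis (60), oxidative phosphorylation (73) and hypoxia (29), edgeR called 0 and DESeq2 1. Of these genes 149 had an unadjusted p under 0.05 and 106 an adjusted p under 0.05, and the interactions ran from -1.51 to 0.88. The 16 helicases, which unwind G4s, ran from -0.50 to 0.22 with a median of -0.11. Of 23 p53 targets, 2 were lower (8.7%, against 4.92% of all tested genes). CDKN1A, the cyclin-dependent kinase inhibitor p21, had 9.78, 8.22 and 8.65 CPM in untreated PEO1 BRCA+, 19.6, 17.9 and 17.1 CPM in PEO1 BRCA+ at 2 h, 30.6, 20.9 and 25.4 CPM in untreated PEO4 and 17.9, 20.2 and 17.9 CPM in PEO4 at 2 h. Neither line had overlapping groups, and treatment put the libraries below the untreated ones in PEO4 and above them in PEO1 BRCA+. CDKN1A rose by 1.04 in PEO1 BRCA+, its log2FC in PEO4 was -0.46, and the interaction was -1.50 (SE 0.19, edgeR adjusted p = 4.5e-06). BTG2, an antiproliferative p53 target, stood at -1.12, and at -0.67 without untreated PEO4 replicate 1, where its call was lost. Of 77 ribosomal protein genes RPS9 alone was called (1.08), at 4.78 ± 0.81 CPM in untreated PEO4 (SD, n = 3), and it lost its call under some alternatives.

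Promoter letters and gene features are given for the genes of higher response, those of lower response and all tested genes. A G4 motif, 4 runs of 3 or more G with 1 to 7 bases between them on either strand, stood in 39.8% of the 729 promoters of higher response, 36.5% of the 609 of lower response and 33.7% of all 12721. Median promoter GC was 65.0, 63.3 and 64.7%. The AP-1 letters TGANTCA stood in 45 of the promoters of higher (6.17%), 61 of those of lower response and 5.06% of all, and the E-box CACGTG in 8.64, 5.09 and 9.72%. The CRE letters TGACGTCA stood in 2.19, 1.48 and 2.95%, the CArG box in 2.19, 1.48 and 0.998%, CATTCC in 88, 85 and 1439 promoters, and the TCF/LEF letters CTTTGAT in 1.65, 1.64 and 1.48%. Over the same sets the ISRE stood in 2.47, 5.25 and 2.82% and the κB motif in 7.82, 8.54 and 6.51%. Protein-coding genes were 80.6% of the higher, 89.8% of the lower responses and 83.8% of all, and long noncoding RNAs 10.3, 5.6 and 8.5%. The median gene span was 31.7 kb, 33.0 kb and 26.6 kb. Expression at 5 CPM or more in both lines was met by 40.7, 41.5 and 65.4%. No test was made on these shares.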

How the data were processed

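RNA was sequenced as poly(A)-selected, 150 bp paired-end libraries. The authors deposited whole-number read counts per gene. Per the labels, FastQC, fastp, STAR and featureCounts with hg38 were used. The annotation, strand setting and tool versions are not given in the sources used here. The table of 18 libraries (PEO1 BRCA+ and PEO4, untreated and PDS for 2 and 6 h) was fitted as a whole. Its 28277 genes include 4746 with 0 counts throughout, and 1 unreadable line was dropped. Genes passing filterByExpr (minimum count 10, total 15) were scaled by TMM and tested with edgeR 4.0.16 (robust quasi-likelihood fit, limma 3.58.1, R 4.3.3). Significance was set at a Benjamini-Hochberg adjusted p below 0.05 over 17020 genes and an absolute interaction above 1. Each SE was worked back from the test, as the absolute interaction divided by the square root of the quasi-likelihood F statistic. edgeR's common dispersion was 0.00502. DESeq2 1.42.0 served as an alternative. Intervals and floors cover counting error only. Values in CPM were computed from the counts. The second table (6 untreated libraries) was described only, with a pseudocount of 0.5 CPM. Scripts were tested on simulated data.

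The comparison and gene lists were chosen with earlier results of these data known. Named genes were the 10 largest interactions each way among called genes with 5 CPM or more in each line, the 3 largest each way in genes silent in one line, the 4 largest each way in genes called in opposite directions, and the 2 largest of each list, passing over small RNAs, pseudogenes, mitochondrial genes and symbols without a name. Some genes within this rule are not reported here. Other genes named were chosen after their values were seen. Motif letters for ISRE, κB and TCF/LEF were also added after that. Promoters came from RefSeq (GRCh38.p14), with 27621 of the listed genes matched to RefSeq by name.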

Additional observations from a re-analysis of the deposited data

Results flagged for a closer look

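The 2 lines moved in opposite directions for 63 genes that rose in PEO4 and fell in PEO1 BRCA+ and for 19 that fell in PEO4 and rose in PEO1 BRCA+ (11 when scaled by library totals), and each of these passed the edgeR test of the interaction. The largest fitted interactions among them were CXCL5 (11.12), UBXN10 (6.74), MUC5B (6.70) and TNFRSF18 (6.46) in one direction and NEU2 (-7.18), FLRT2 (-5.60), SPRR1B (-5.33) and GAST (-4.89) in the other. All but SPRR1B had a group with no more than 3 counts in any library, so their sizes depend on the prior count and are no bounds, while their direction rests on the counts given above.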

How the results depend on the processing

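The interaction had 1039 higher and 837 lower genes, and the counts stayed within 1.5 times of these under other scalings, count filters, thinning and the DESeq2 Wald test (1002 and 870, of which 980 and 823 were among the edgeR calls). The 19 genes that fell in PEO4 and rose in PEO1 BRCA+ became 11 under library totals and 13 under upper-quartile scaling. Leaving out 1 library at a time gave 945 to 1130 higher and 776 to 933 lower. Without the limit on size, an adjusted p under 0.05 alone gave 3285 and 3066. A test against an absolute log2 of 1 (glmTreat) gave 365 and 329. With the replicate block the counts were 1026 and 824. Deviations of same-numbered libraries from their group means had correlations from -0.185 to 0.064. Deviations from means of 3 libraries cannot decide whether same-numbered libraries were handled together, which the labels do not say. Of 88 named genes, 74 kept their call under every alternative they could be fitted in, 14 lost it under at least 1 (among them BTG2, CACNB2, CDH11, DUSP8, ELL2, ERBB3, FOXF2, HSPA1A, IFITM1, NR5A2, PRR5L, RPS9 and VWF), and 0 changed direction. Depth limits genes with few counts: of 805 tested genes with a group at no more than 3 counts per library, 168 were called.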

Other observations

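The following genes were chosen after their values were seen. SCNN1B and POPDC3, relatives of named genes, rose in PEO4. SCNN1B, the β subunit of the epithelial sodium channel, had 16.2, 22.3 and 19.5 CPM in untreated PEO1 BRCA+, 12.4, 12.7 and 13.1 CPM in PEO1 BRCA+ at 2 h, 5.8, 4.57 and 6.5 CPM in untreated PEO4 and 54.8, 62.9 and 49.5 CPM in PEO4 at 2 h. In each line treated and untreated libraries were apart, above in PEO4 and below in PEO1 BRCA+. The interaction was 3.91 (SE 0.22, edgeR adjusted p = 2.3e-10), beside 4.89 for SCNN1G, whereas the α subunit SCNN1A had 453 ± 25.8 and 414 ± 27.1 CPM in PEO4 (SD, n = 3) and an interaction of 0.20 (edgeR adjusted p = 0.099). POPDC3, a relative and genomic neighbour of BVES, had 12.4, 11.3 and 11.6 CPM in untreated PEO1 BRCA+, 7.87, 8.3 and 8.14 CPM in PEO1 BRCA+ at 2 h, 12.8, 29.2 and 10.3 CPM in untreated PEO4 and 135, 132 and 127 CPM in PEO4 at 2 h. Groups did not overlap in either line, with the treated libraries above the untreated ones in PEO4 and below them in PEO1 BRCA+. Its interaction was 3.46 (SE 0.38, edgeR adjusted p = 1.2e-05), beside 4.02 for BVES.

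Other surface and secreted proteins differed as well. ANPEP, aminopeptidase N, rose from 65.2 ± 39.6 to 605 ± 24.3 CPM in PEO4 (SD, n = 3), with 460.1 ± 33.6 and 405 ± 4.62 CPM in PEO1 BRCA+, an interaction of 3.40 (SE 0.40, edgeR adjusted p = 2.4e-05). IL7R, the interleukin 7 receptor, rose by 2.45 in PEO4 and fell by 1.32 in PEO1 BRCA+ (interaction 3.77, edgeR adjusted p = 2.5e-11). The protease inhibitor SERPINE2 stood at 3.68, the semaphorin receptor NRP1 at 2.84, the neurotrophin BDNF at 2.56 and the transcription factor SOX9 at 2.38. Without untreated PEO4 replicate 2 these were 4.79, 4.0, 3.09 and 3.30. On the lower side, the oxytocin receptor OXTR had 80.6, 80.2 and 81.6 CPM in untreated PEO1 BRCA+, 94.7, 96.3 and 99.8 CPM in PEO1 BRCA+ at 2 h, 13.4, 11.9 and 12.02 CPM in untreated PEO4 and 1.44, 1.67 and 1.27 CPM in PEO4 at 2 h. The treated libraries were below the untreated ones in PEO4 and above them in PEO1 BRCA+, without overlap. OXTR had an interaction of -3.36 (SE 0.12, edgeR adjusted p = 1.2e-15). PAX9, a paired-box factor of oral and oesophageal epithelium, fell from 72.7 ± 10.2 to 4.14 ± 0.648 CPM in PEO4, against 73.2 ± 2.17 and 41.6 ± 1.99 CPM in PEO1 BRCA+ (interaction -3.32, edgeR adjusted p = 3e-14). Biglycan, BGN, fell in both lines, by 4.87 in PEO4 and 1.57 in PEO1 BRCA+, and fibrillin, FBN1, by 2.65 in PEO4 with a log2FC of -0.14 in PEO1 BRCA+, giving interactions of -3.29 and -2.50. The matrix protease inhibitor TIMP3 (-2.19) and the protease ADAMTS1 (-2.71) fell in PEO4. CEACAM6, a carcinoembryonic antigen family member, rose by 1.03 in PEO1 BRCA+ and fell by 2.34 in PEO4 (interaction -3.37, edgeR adjusted p = 7.3e-08).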
